A study of Mus musculus with 4 samples.

Results

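The S phase genes described here are 40 genes of DNA replication and of the S phase of the division cycle, taken as a named list by their symbols among the 31055 features of the count tables. All 40 were found. They were followed across 4 libraries of mouse muscle stem cells and, within the activated libraries, across cells grouped by their UMIs (counted RNA molecules) of Pax7, the transcription factor that marks muscle stem cells, and Myog, the transcription factor that marks myoblasts committed to differentiation.

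All cells came from mice of 2 to 4 months carrying Tg:Pax7-nGFP, a transgene that puts a nuclear green fluorescent protein under Pax7 control, and were sorted by that fluorescence from the extraocular muscles (EOM) or the tibialis anterior (TA). Quiescent cells went straight to droplet single-cell RNA sequencing, whereas activated cells were first cultured on Matrigel, in growth medium under 3% O2, for 4 days. Every combination of muscle and state was 1 library, and how many animals stand behind a library is not given in the sources used here. With 1 library a group there is no replicate error and no test, so every interval below is a 95% interval that covers counting error only. Because GFP protein outlasts the RNA that made it, the sort selects cells by recent Pax7 activity.

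Replication begins when the MCM helicase is loaded onto origins in G1 and is then switched on in S phase by its activating partners, after which primase, the polymerases, the sliding clamp and its loader copy the DNA while histones and nucleotides are supplied in parallel. Many genes of this machinery are transcribed in late G1 and S phase under E2F transcription factors. Adult muscle stem cells rest outside the cycle, enter it after injury or when plated, and leave it for good when they differentiate.

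After filtering, 3608 quiescent cells remained from EOM and 2934 from TA, and 5634 and 4336 activated cells, holding 17510520, 15544014, 123466498 and 103507937 UMIs. The median cell held 4658 and 5044 UMIs in the quiescent libraries against 21229.5 and 23378 in the activated ones. The kept cells were 84.7% and 56.2% of the quiescent EOM and TA barcodes, and 74.2% and 71.2% of the activated ones. More than 10% mitochondrial UMIs were held by 497 of 4262 quiescent EOM and 2115 of 5225 quiescent TA barcodes. The part of this difference in the EOM over TA ratios at rest was not tested. Pairs of libraries shared between 2 and 8 barcodes among the kept cells. The 8 muscle stem cell markers were all detected in each library, and their summed level was 3466, 4499, 1732 and 2250 CPM in the order just given (CPM, the UMIs of a gene over all UMIs of the kept cells of the library, scaled to a total that is the same for each library). The 8 markers of differentiating muscle summed to 7.25 and 15.7 CPM in the quiescent and 5766 and 9137 CPM in the activated libraries. Fibroblast markers, 7 genes, summed to 598, 707, 87.4 and 79.2 CPM, and 7 mural cell markers to 554, 381, 2294 and 1499 CPM, of which 1 gene gave 2041 and 1186 CPM in the activated libraries; the part of such cells in the results below was not tested.

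Promoters of the members were compared with those of all genes for the E2F word, since E2F proteins are the factors best known for this gene group. RefSeq windows from 250 bases before to 50 bases after the transcription start on GRCm38.p6 were matched by symbol for 30 of the 40 members. TTTCCCGC, TTTGGCGC, TTTCGCGC or TTTGCCGC, read on both strands with overlaps allowed, stood in the windows of 12 of the 30 (40%) against 704 of 27025 genes with a window (2.61%). CCAAT stood in 70% of the members' genes against 41.1% of all, and TTTGAA in 20% against 20.2%. The 150 bases before the start are shown for 6 members, with any E2F word in capitals. Cdc6, Brip1, Rad51ap1 and E2f8 are shown because they stand at the ends of the Myog pattern described further on, and Mcm6 and Pola1 as further carriers of the word. Mcm6 (chr1:128359706-128359855, minus strand), Cdc6 (chr11:98908001-98908150, plus strand) and Pola1 (chrX:93632156-93632305, minus strand) carry it, and Brip1 (chr11:86201194-86201343, minus strand), Rad51ap1 (chr6:126939588-126939737, minus strand) and E2f8 (chr7:48881597-48881746, minus strand) do not carry it in this window.
Mcm6: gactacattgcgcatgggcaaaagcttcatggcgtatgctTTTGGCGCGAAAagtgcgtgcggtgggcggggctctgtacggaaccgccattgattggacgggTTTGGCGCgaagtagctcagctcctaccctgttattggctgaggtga
Cdc6: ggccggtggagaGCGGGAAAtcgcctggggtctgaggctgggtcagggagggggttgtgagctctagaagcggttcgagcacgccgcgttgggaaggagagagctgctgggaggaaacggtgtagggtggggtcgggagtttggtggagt
Pola1: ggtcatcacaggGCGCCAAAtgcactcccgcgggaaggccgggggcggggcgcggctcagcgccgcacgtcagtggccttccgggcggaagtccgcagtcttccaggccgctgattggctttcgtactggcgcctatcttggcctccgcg
Brip1: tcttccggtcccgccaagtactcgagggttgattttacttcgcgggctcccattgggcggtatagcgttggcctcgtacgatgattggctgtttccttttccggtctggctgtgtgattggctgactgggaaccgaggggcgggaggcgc
Rad51ap1: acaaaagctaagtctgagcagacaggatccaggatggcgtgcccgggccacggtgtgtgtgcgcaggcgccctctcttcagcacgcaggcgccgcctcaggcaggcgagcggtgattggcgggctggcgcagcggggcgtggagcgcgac
E2f8: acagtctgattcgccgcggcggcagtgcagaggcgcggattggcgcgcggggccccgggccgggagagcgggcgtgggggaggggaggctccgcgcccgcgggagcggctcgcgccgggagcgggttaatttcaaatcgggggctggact
None of these stretches overlaps an exon of GENCODE vM21. That annotation starts Cdc6 at position 98907801 of chromosome 11, ahead of the RefSeq start used here, so for Cdc6 the stretch lies inside the gene by 1 annotation and before it by the other. Mcm6 held 3 words, 2 of which overlap. A match describes the letters of a window and not a bound site.

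The first comparison asked how the S phase genes differ between resting and activated cells. As a sum, the 40 genes stood at 713 CPM in quiescent cells of EOM and 594 in those of TA, and at 3184 and 3623 CPM in activated cells, which is 0.0713%, 0.0594%, 0.318% and 0.362% of all UMIs. Both activated libraries lay above both quiescent ones. A gene was counted as measured where 1 of the compared libraries reached 20 CPM. In EOM, 34 of 37 measured members were higher by 2-fold or more after activation and none was 2-fold lower, beside 27.5% of all measured genes higher and 24.4% lower. In TA 34 of 36 were higher and none lower, beside 30.6% and 24.6% of all genes. Only 8 of the 40 members reached 20 CPM in a quiescent library. The other measured members passed the limit through the activated library alone and could not have been called lower. Of the 8, Pold3 (1.62), Pcna (0.792) and Slbp (0.537) were not 2-fold higher in EOM. Pcna and Slbp were not in TA, and the rest of the 8 were higher. The members' median log2 ratio (with 1 CPM added) was 2.94 in EOM and 3.18 in TA, against 0.14 and 0.22 over all measured genes. Scaling by edgeR's TMM factors in place of the totals added 0.36 (EOM) and 0.28 (TA) to every log2 ratio and moved the share of all calls that were higher from 53.0% to 68.0% in EOM and from 55.4% to 65.9% in TA.

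**Figure D1:**
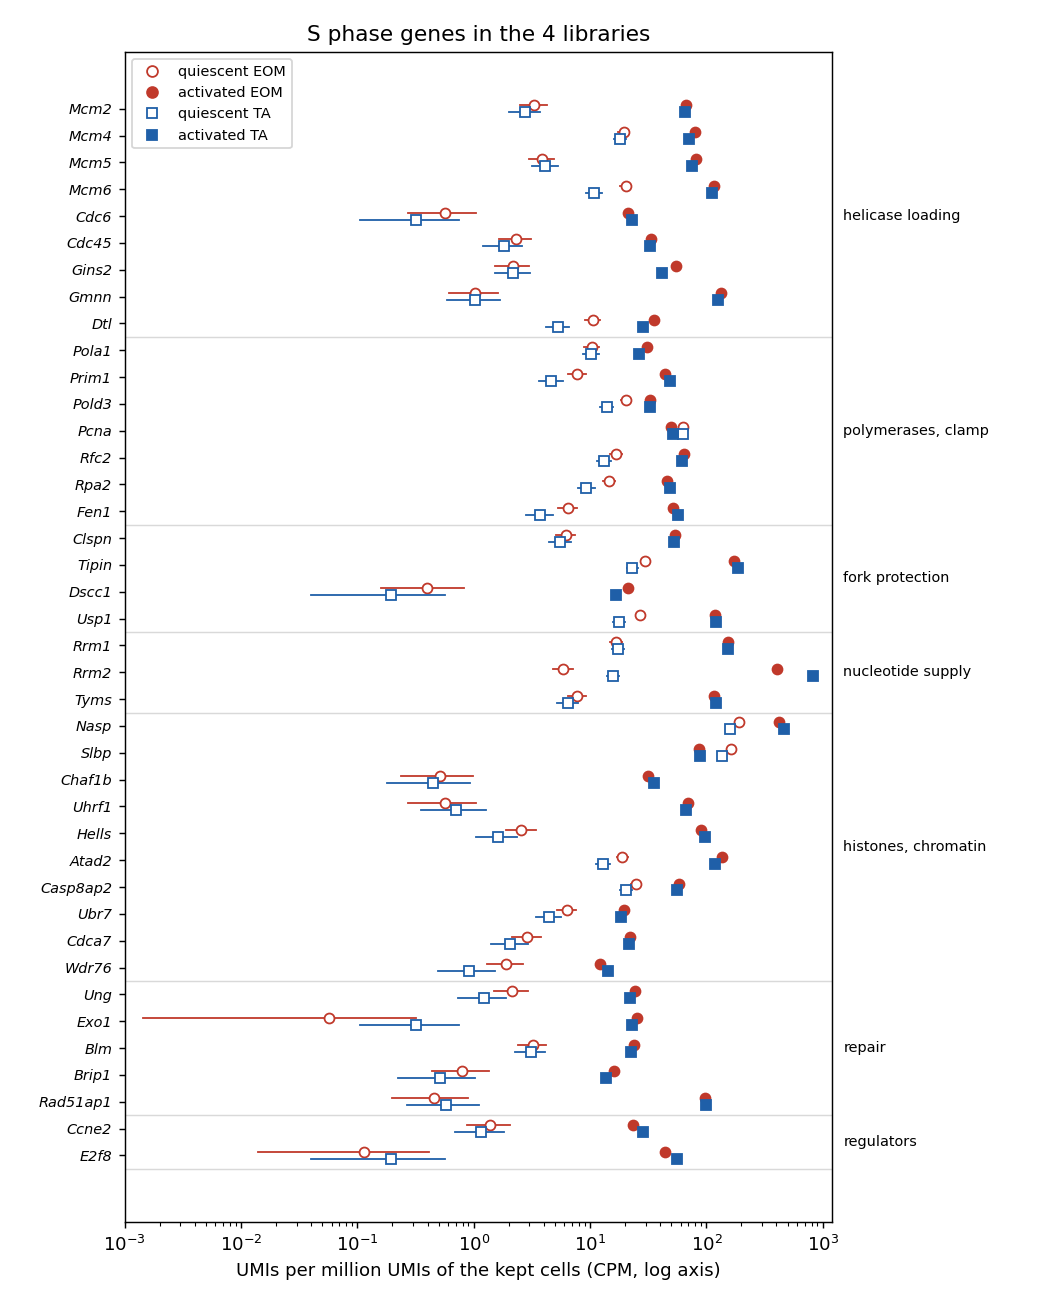
Level of each of the 40 S phase genes in the 4 libraries, in CPM on a log axis, by role; open symbols are quiescent and filled symbols activated cells, circles EOM and squares TA, and bars are exact 95% Poisson intervals. Nearly all filled symbols lie to the right of the open ones; for Pcna and Slbp they lie to the left.

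Among the genes of helicase loading and activation, all 9 were at least 2-fold higher in activated cells of both muscles, by 3.39- to 130-fold in EOM and 3.91- to 122-fold in TA. Gmnn, which encodes geminin, the inhibitor that blocks a further round of loading, stood at 1.03 CPM in both quiescent libraries and at 134 (EOM) and 125 CPM (TA) in the activated ones. Mcm6, a helicase subunit, went from 20.2 to 115 CPM in EOM and from 10.9 to 111 in TA. Mcm5, another subunit, went from 3.83 to 80.8 CPM and from 4.12 to 75.7. The 2 activated libraries lay close together for Gmnn, Mcm6 and Mcm5, and among them the ratio was larger where the quiescent level was lower. Cdc6, the loading factor that brings MCM to origins, was counted 10 times in quiescent EOM and 5 times in quiescent TA, and stood at 21.2 and 22.7 CPM in the activated libraries. Of the other helicase genes, Mcm2 stood at 66.5 and 65.4 CPM after activation, Mcm4 at 79.1 and 70.2, Gins2 at 54.4 and 41.6 and Cdc45, which activates the helicase, at 33.0 and 32.8. Dtl, which directs the destruction of the loading factor Cdt1, had the smallest ratio of the group in EOM, 35.6 against 10.5 CPM.

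The group of polymerases, clamp and loader differed least. Fen1, the flap nuclease that matures Okazaki fragments, stood at 6.40 and 3.73 CPM in quiescent EOM and TA and at 51.2 and 57.1 CPM in the activated libraries. Rfc2, a clamp loader subunit, was at 16.7 and 13.1 CPM against 64.6 and 61.3. Pcna, the sliding clamp itself, went the other way, with 62.2 and 62.9 CPM in the quiescent and 49.3 and 51.2 CPM in the activated libraries, ratios of 0.792 (0.742 to 0.845) in EOM and 0.815 (0.761 to 0.874) in TA on the scale of totals, but 1.02 in EOM and 0.992 in TA under TMM scaling. Pcna-ps2, a copy of the gene listed as a separate feature, held 0.918 to 1.35 CPM in the 4 libraries. Pold3, a subunit of polymerase delta, was 1.62-fold higher in EOM and 2.36-fold higher in TA, and Pola1, the catalytic subunit of polymerase alpha, 2.95- and 2.55-fold. Prim1, the primase, was 5.69- and 10.4-fold higher, and Rpa2, of the single-strand binding complex, 3.14- and 5.29-fold.

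Of the fork protection genes, 4 of 4 measured were higher in EOM and 3 of 3 in TA. Tipin, of the fork protection complex, stood at 29.7 and 23.0 CPM in quiescent EOM and TA and at 173 and 188 CPM after activation. Usp1, a deubiquitinase that acts on the clamp, stood at 27.0 and 17.6 against 119 and 120 CPM, and Clspn, which encodes the checkpoint adaptor claspin, at 6.17 and 5.53 against 54.1 and 52.8. Dscc1, of the alternative clamp loader for cohesion, was counted 7 and 3 times in the quiescent libraries and reached 21.1 and 16.6 CPM.

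The 3 nucleotide supply genes were all higher after activation, and 1 of them had the widest gap between the activated muscles. Rrm2, the small subunit of ribonucleotide reductase, stood at 5.83 CPM in EOM and 15.8 in TA at rest, and at 407 and 827 CPM after activation. TA was higher than EOM in both states. Rrm1, the large subunit, stood at 16.7, 17.4, 152 and 154 CPM in the same order, so that its levels in the 2 muscles were nearly the same within each state. Tyms, thymidylate synthase, was at 7.71, 6.43, 117 and 121 CPM. Rrm2 alone made up 827 of the 3623 CPM of the members in activated TA.

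Of the histone and chromatin group, 8 were measured, and 7 of the 8 were higher in each muscle. Nasp, a histone chaperone, stood at 189 and 158 CPM in the quiescent libraries and at 424 and 462 CPM after activation. Atad2, a bromodomain ATPase, went from 18.8 and 12.9 to 136 and 119 CPM, and Hells, a chromatin remodeller needed for DNA methylation, from 2.57 and 1.61 to 89.3 and 96.9. Uhrf1, which recruits the maintenance methyltransferase, was counted 10 and 11 times in quiescent cells and reached 69.8 and 67.0 CPM. Chaf1b, of the chromatin assembly factor, was 61.1- and 78.3-fold higher, Cdca7 7.66- and 10.6-fold and Casp8ap2, which takes part in histone gene expression, 2.36- and 2.77-fold. Ubr7 and Wdr76 stayed under 20 CPM in all 4 libraries, with 19.5 and 18.6 and 12.1 and 14.3 CPM after activation. Slbp, the stem-loop binding protein that matures replication-dependent histone messages, stood at 162 and 135 CPM in quiescent and 86.9 and 88.2 CPM in activated cells. Its ratios were 0.537 (0.515 to 0.560) in EOM and 0.654 (0.624 to 0.686) in TA on the scale of totals, and stayed below 1 at 0.690 and 0.796 under TMM scaling.

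The repair genes and the regulators had few counts in resting cells. Rad51ap1, a gene of DNA repair, was counted 8 and 9 times in quiescent EOM and TA and stood at 96.7 and 99.3 CPM after activation. Exo1, a nuclease of mismatch repair and end resection, was counted 1 and 5 times against 25.2 and 22.8 CPM, Ung, which removes uracil from DNA, stood at 2.11 and 1.22 against 24.5 and 22.1, and Blm, a helicase of recombination, stood at 3.20 and 3.09 against 24.0 and 22.7 CPM. Brip1 stayed under 20 CPM, with 0.8 and 0.515 against 16.0 and 13.8. E2f8, an atypical E2F that represses E2F targets, had 2 and 3 counts in quiescent cells against 44.4 and 55.6 CPM, ratios of 389 (108 to 3211) and 288 (98.5 to 1397). Ccne2, cyclin E2, stood at 1.37 and 1.16 against 23.2 and 28.8 CPM. Ratios on so few counts are loose, which the width of their intervals shows.

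Nasp, Slbp and Pcna together held 58.0% of the members' UMIs in quiescent EOM and 60.0% in quiescent TA, so the members' sum at rest is mainly theirs. The 36 quiescent EOM cells richest in member UMIs, 1% of the cells, held 3.98% of the members' UMIs, and the 29 richest quiescent TA cells held 5.42%, against 3.25% and 3.02% for the richest 1% of activated cells. These counts were not thinned. The median cell held 3 member UMIs in each quiescent library, against 69 in activated EOM and 86 in activated TA. Counting error widens such shares where a cell holds few UMIs, and its part in the difference was not tested. For the other 37 members these shares were 5.31% in quiescent EOM and 8.88% in quiescent TA, where 1 cell held 88 of their 3693 UMIs and the median cell held 1. With each cell thinned to 2000 UMIs (82 quiescent EOM and 58 quiescent TA cells were shallower and left out), 73.4% and 67.0% of cells held a UMI of any member, against 10 of 13 cells that clustered as endothelial-like in quiescent TA (76.9%, lower bound 46.2%), where 3 were too shallow; the quiescent shares did not exceed that of these cells. The median depths before thinning were 4658, 5044 and 5194.5 UMIs. Without thinning the shares were 93.6%, 90.9% and 93.8%. At least 5 member UMIs were held by 2.61% and 1.67% of quiescent EOM and TA cells at that depth, and by 63.5% and 71.0% of activated EOM and TA cells. Of the 92 and 48 quiescent cells with 5 or more, 1 and 2 also held 5 or more UMIs of 18 genes of G2 and M phase. That list summed to 32.2 and 26.8 CPM in the quiescent and 3160 and 3005 CPM in the activated libraries, with all 18 higher in both muscles.

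The next comparison set the muscles side by side. Of 8 members measured in quiescent cells, none was 2-fold apart, beside 3.03% of all genes higher and 2.61% lower in EOM. Of 37 in activated cells, none was 2-fold higher in EOM and 1 was lower, beside 2.02% and 0.944% of all genes. These counts lie near the shares over all genes, and at rest only 8 of the 40 members reached 20 CPM. The members' median log2 ratio of EOM over TA was 0.31 in quiescent cells, against 0.06 over all genes, and 0.01 in activated cells, against -0.02. Scaling by TMM lowered the quiescent log2 ratios by 0.11 and took the share of all quiescent calls higher in EOM from 53.8% to 43.1%.

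The member apart in activated cells was Rrm2. Its EOM over TA ratio was 0.492 (0.487 to 0.497) in activated cells and 0.370 (0.290 to 0.467) in quiescent cells, where it lay under 20 CPM. In activated cells the gap was seen in each Pax7 and Myog state: 442 CPM in EOM against 916 in TA among cells with Pax7 and no Myog, 459 against 909 with both, 355 against 757 with Myog alone and 465 against 953 with neither. It was the 1 member past 2-fold with Pax7 alone (39 measured, beside 2.69% of all genes higher and 1.49% lower), with Myog alone (32 measured, 1.59% and 0.68%) and with neither (39 measured, 2.66% and 1.5%), while with both none of 39 was (2.24% and 1.28%). With a mitochondrial limit of 5% in place of 10%, on 606 and 481 activated cells, no member was past 2-fold. The next largest activated differences were Gins2, a subunit of the active helicase, at 54.4 against 41.6 CPM (1.31), Dscc1 at 1.27, Dtl at 1.26 and, in the other direction, E2f8 at 0.799. Among quiescent genes Mcm6 was at 20.2 against 10.9 CPM (1.85, 1.54 to 2.24) and Dtl at 10.5 against 5.28 (1.99, 1.53 to 2.62).

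The next comparison asked how the members follow the step from Pax7 to Myog in culture. Each activated cell was thinned to 10000 UMIs and called by whether it held a UMI of Pax7 and of Myog; 355 EOM and 263 TA cells were shallower and left out. Myog averaged 1475 and 1563 CPM over the activated libraries, no cell type without Myog was at hand to give a background share, and the part of free Myog RNA in the cells called by 1 or a few UMIs was not tested. EOM had 1060 cells with Pax7 alone, 1130 with both, 2516 with Myog alone and 573 with neither, and TA had 433, 946, 2352 and 342. In that order the members summed to 3690, 3642, 2569 and 3891 CPM in EOM and to 4306, 4063, 3169 and 4494 in TA. The cells with Myog alone were the lowest in both libraries, and the cells with neither were the highest. At 10000 UMIs the middle cell held 37 member UMIs with Pax7 alone and 21 with Myog alone in EOM, and 43 and 30 in TA. The spread was wider with Myog alone: the 10th and 90th percentiles were 5 and 49 UMIs in EOM, against 22 and 53 with Pax7 alone.

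Gene by gene, cells with Myog alone had 1 member at least 2-fold higher and 5 lower of 39 measured in EOM, beside 6.59% of all genes higher and 5.73% lower, and 1 higher and 4 lower of 39 in TA, beside 4.34% and 1.9%. The count depended on how a state was called: with all UMIs of a cell 15 members were apart in EOM and 10 in TA, and with a minimum of 2 UMIs to hold a gene 11 and 8. No share of all genes was computed for these ways of calling a state, so these counts have nothing to stand beside. Cdc6 stood at 12.9 against 27.3 CPM in EOM and 16.8 against 33.8 in TA. Cdca7, a partner of Hells, stood at 13.4 against 30.7 and 16.0 against 35.5, Exo1 at 15.9 against 33.5 and 16.7 against 35.1, and Brip1, a repair helicase, at 10.2 against 21.2 and 9.70 against 22.6. These 4 were lower in both muscles. Dtl was lower in EOM, at 20.7 against 49.8 CPM, and lay at a ratio of 0.509 in TA. E2f8 was the 1 member higher, at 67.5 against 19.6 CPM in EOM (3.44, 3.13 to 3.78) and 66.0 against 28.9 in TA (2.28, 2.04 to 2.57).

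The members' median log2 ratio was -0.66 in EOM and -0.56 in TA, against -0.10 and -0.08 over all genes. TMM scaling added 0.17 and 0.12 and took the higher share of all calls from 53.5% to 68.2% and from 69.5% to 79.7%. It left 2 members lower in each muscle, beside 3.72% of all genes lower in EOM and 1.33% in TA. Cells with both genes had no member 2-fold apart from cells with Pax7 alone in either library, beside 0.977% of all genes higher in EOM and 0.926% in TA and 0% and 0.132% lower. The same held for cells with neither, beside 0.0191% and 0.0769% of all genes lower and 0% higher. Against cells with neither, Myog alone had 1 member higher and 7 lower of 39 in EOM, beside 6.72% and 4.56% of all genes, and 0 and 1 of 39 in TA, beside 4.21% and 1.09%. Against cells with both it had 1 higher and 3 lower of 39 in EOM, beside 4.36% and 2.7%, and none of 37 apart in TA, beside 1.69% and 0.171%. Among cells without Top2a and Mki67 at this depth, 34 of 38 members were 2-fold lower with Myog alone in EOM, beside 16.5% of all genes lower and 11.2% higher, and 30 of 37 in TA, beside 12.3% and 9.6%, on 851 against 49 cells in EOM and 723 against 22 in TA. A Top2a UMI was held by 85.8% of EOM cells with Pax7 alone and 55.0% with Myog alone, and by 86.1% and 59.1% in TA.

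Cells called by a single Myog UMI were therefore set apart from cells rich in Myog, in bins chosen after the values were seen. The members' sum was lower from 20 Myog UMIs on, and at 10 to 19 it was 1.02 times that of Myog-free cells in EOM and 0.885 times in TA. In EOM it was 3760 CPM with no Myog UMI, 3801 with 1, 3923 with 2 to 4, 4122 with 5 to 9, 3823 with 10 to 19, 2091 with 20 to 49 and 1102 with 50 or more. In TA it was 4390, 4530, 4497, 4260, 3885, 2431 and 1406 CPM over the same bins. The G2 and M phase list stood at 3449 CPM with no Myog UMI, 3793 with 10 to 19 and 1683 with 50 or more in EOM, and at 3247, 3593 and 1446 in TA. Its level at 50 or more was 0.488 of that at 0 in EOM and 0.445 in TA, against 0.293 and 0.320 for the S phase genes.

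**Figure D2:**
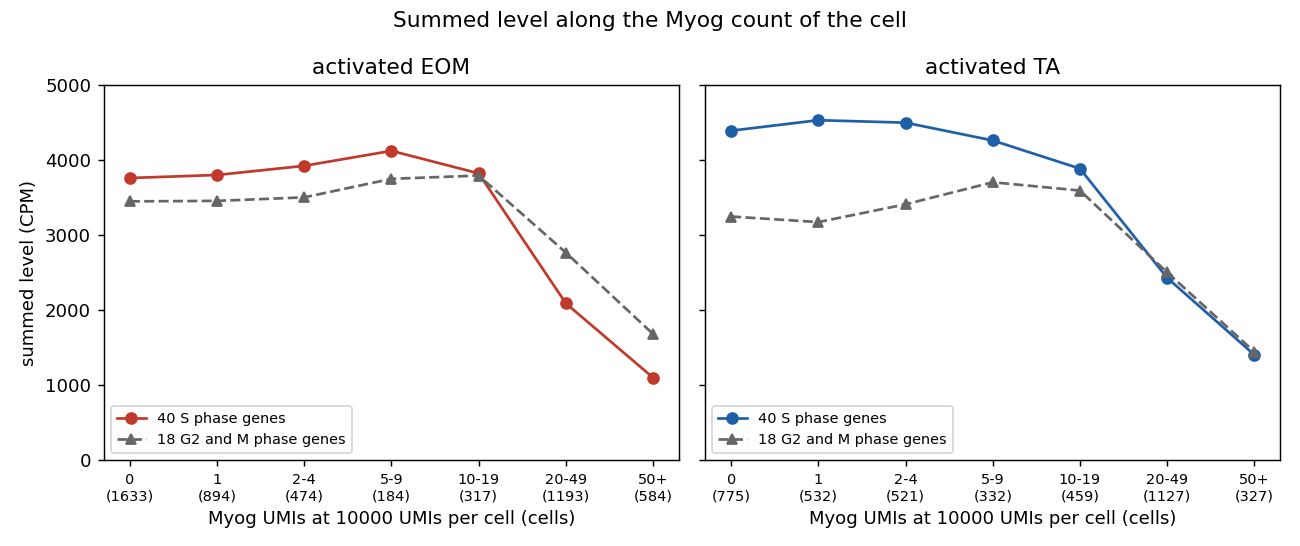
Summed CPM of the 40 S phase genes (solid) and of 18 G2 and M phase genes (dashed) in activated EOM and TA cells, by the Myog UMIs of a cell thinned to 10000 UMIs, with the number of cells under each bin. Both sums are lower from 20 Myog UMIs on, down to 1102 (EOM) and 1406 CPM (TA) for the S phase genes.

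With 20 to 49 Myog UMIs, 23 of 39 members were at least 2-fold lower than with none in each library, beside 9.73% of all genes in EOM and 4.95% in TA, and 1 was higher, beside 8.39% and 6.53%. With 50 or more, 37 of 39 were lower in each library, beside 17.5% and 13.2%, and 1 was higher, beside 10.5% and 8.62%. The median log2 ratio of the members was -2.40 in EOM and -2.33 in TA, against -0.18 and -0.15 over all genes. TMM scaling added 0.18 and 0.14 to the log2 ratios and took the higher share of all calls from 37.5% to 49% in EOM and from 39.4% to 48.5% in TA. No member changed direction under it.

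Cdc6 was the lowest member in both libraries. Cdc6 stood at 29.3 CPM with no Myog UMI and at 0.609 with 50 or more in EOM, and at 32.9 and 0.412 in TA, ratios of 0.0208 (0.00835 to 0.0430) and 0.0125 (0.00258 to 0.0368). The TA value rests on 3 UMIs. Hells went from 120 to 4.18 CPM in EOM and from 136 to 10.8 in TA, Dtl from 48.7 to 1.83 and from 40.2 to 2.33, Exo1 from 34.5 to 1.57 and from 34.3 to 1.37, and Brip1 from 20.9 to 1.13 and from 22.0 to 0.823. Cdca7, Clspn, Ccne2, Ung and Atad2 were all below 0.1 of their Myog-free level in both libraries. Free RNA in droplets can put a library's average message into every cell; Cdc6 in the cells with 50 or more stood at 2.88% (1.16 to 5.94) of its level over the whole library in EOM and at 1.81% (0.373 to 5.29) in TA.

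**Figure D3:**
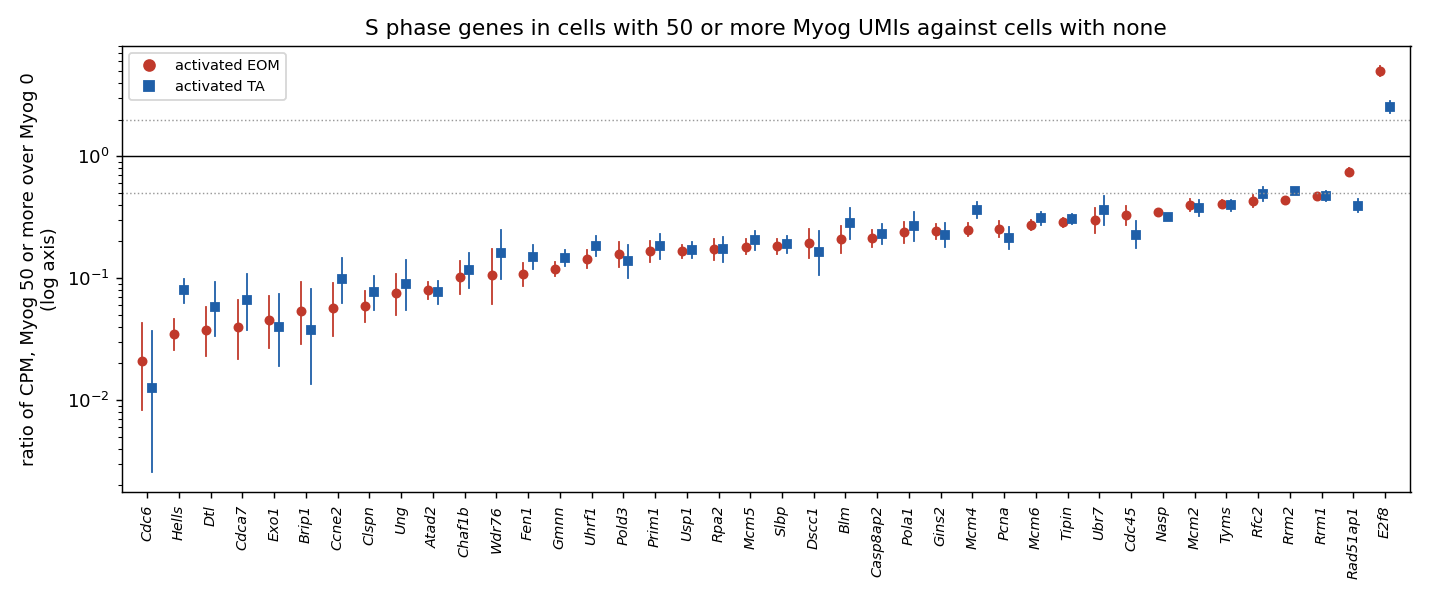
Ratio of CPM in cells with 50 or more Myog UMIs over cells with none, on a log axis, for the 40 S phase genes in activated EOM (circles) and TA (squares), ordered by the EOM ratio, with 95% intervals of counting error and dotted lines at 2-fold. The ratios run from 0.0208 for Cdc6 to 4.99 for E2f8 in EOM, and from 0.0125 to 2.52 for the same genes in TA.

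Of the nucleotide supply genes, Rrm1 stood at 171 against 80.2 CPM in EOM (0.469) and 172 against 81.3 in TA (0.474), and Tyms at 0.406 and 0.398. The MCM subunits ranged from 0.181 (Mcm5) to 0.399 (Mcm2) in EOM and from 0.205 to 0.377 for the same genes in TA. Rfc2 stood at 0.430 and 0.488. Rrm2 stood at 450 against 198 CPM in EOM (0.440, 0.421 to 0.460) and at 933 against 482 in TA (0.517, 0.499 to 0.536), the 1 measured member besides E2f8 that was not 2-fold lower in TA. Nasp stood at 484 against 170 and 550 against 176 CPM. With the 5% mitochondrial limit, 10 measured TA members were lower and 5 higher, on 3 cells with 50 or more Myog UMIs.

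Rad51ap1 and E2f8 followed another course. Rad51ap1 stood at 81.4 CPM with no Myog UMI in EOM, 164 with 5 to 9, 168 with 10 to 19 and 60.4 with 50 or more. In TA it went from 101 to 120, 125 and 39.6 CPM over the same bins. It was thus highest in the middle of the Myog range in both libraries, 2.06-fold (1.93 to 2.2) over the Myog-free cells in EOM at 10 to 19, where no member was 2-fold lower and E2f8 was the other member that was 2-fold higher, beside 4.52% of all genes higher and 3.79% lower. In TA no member of 39 was 2-fold apart at 10 to 19, beside 2.54% and 0.958%. E2f8 was higher in each successive bin: in EOM 20.5, 21.6, 28.0, 34.2, 53.5, 77.3 and 102 CPM, and in TA 33.0, 35.1, 46.7, 62.9, 64.1, 73.5 and 83.1 CPM. Its ratio at 50 or more was 4.99 (4.56 to 5.47) in EOM and 2.52 (2.26 to 2.82) in TA. At 10000 UMIs, 18.2% of Myog-free EOM cells held a UMI of E2f8 and 59.8% of those with 50 or more, against 25.2% and 58.4% in TA; the activated libraries held no cell type that should lack the gene. On the opposite strand Rad51ap1 overlaps the pseudogene Gm17808 and E2f8 overlaps Gm2788, as Ccne2 does Ints8, Rfc2 Lat2, Gins2 Gse1, Ubr7 Gm20604, Cdc45 Ufd1, Fen1 Tmem258, Slbp Gm10459, Dscc1 Gm41325 and, among pseudogenes, Clspn Gm12936, Blm Ndufab1-ps, Brip1 Atp5l-ps2 and Pola1 Gm14780; whether counting used the strand is not stated in the sources, so reads of these pairs may not be told apart.

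**Figure D4:**
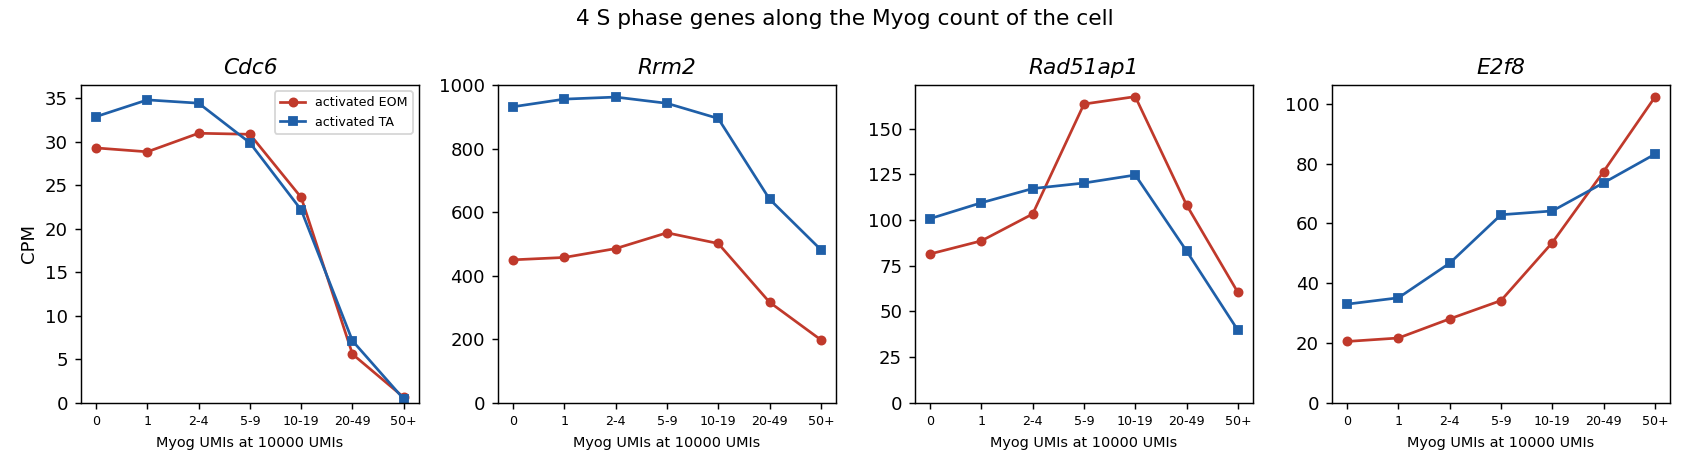
CPM of Cdc6, Rrm2, Rad51ap1 and E2f8 by the Myog UMIs of a cell thinned to 10000 UMIs, in activated EOM (circles) and TA (squares), each panel on its own axis from 0. Cdc6 is near 0 at 50 or more, Rrm2 keeps 198 (EOM) and 482 CPM (TA), Rad51ap1 is highest at 10 to 19, and E2f8 is highest at 50 or more, with 102 and 83.1 CPM.

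The members that carry an E2F word were set beside those that do not. Their median ratio at 50 or more Myog UMIs was 0.151 in EOM and 0.162 in TA over 12 genes with the word, and 0.231 and 0.221 over 18 without it. The ranges overlapped, from 0.0208 to 0.299 with the word and from 0.0542 to 4.99 without it in EOM. Of the members named above as lowest, Cdc6, Hells, Dtl, Cdca7 and Clspn carried the word. Brip1 and Ung did not carry it, and Exo1, Ccne2 and Atad2 had no window. Mcm6, with 3 words, stood at 0.273 and 0.310. A link between the word and the ratio was not tested.

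Among cells without Myog the Pax7 count moved the members little. From 0 to 1, 2 and at least 3 Pax7 UMIs, they summed to 3891, 3768, 3710 and 3498 CPM in EOM and to 4494, 4347, 4296 and 4207 in TA. The G2 and M phase list went the other way, from 3123 to 4046 CPM in EOM and from 3086 to 3885 in TA.

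To see how the members vary within the cycle, Myog-free cells were split by Top2a, a topoisomerase that peaks in G2 and M phase and is not a member. EOM had 1386 cells with a Top2a UMI at 10000 UMIs and 247 without, and TA had 669 and 106. No member of 39 in EOM or 40 in TA was 2-fold apart, beside 0.565% and 0.55% of all genes higher and 0.0377% and 0.019% lower. The members summed to 3755 against 3800 CPM in EOM and 4389 against 4401 in TA. The G2 and M phase list, which holds Top2a, stood at 3630 against 2138 and 3399 against 2049 CPM.

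Below 2-fold, 8 members were lower in the Top2a-holding cells of both libraries with intervals wholly under 1 (10 in EOM and 9 in TA), and 3 were higher in both (7 in each). Of all measured genes, 2.52% were lower by this rule in both libraries (10.8% in EOM and 7.02% in TA) and 4.78% were higher in both (14.7% and 8.44%). The 8 were Cdc6, Ung, Cdca7, Dtl, Hells, Slbp, Rpa2 and Casp8ap2, and the 3 were Blm, Fen1 and Usp1. Cdc6 stood at 26.8 against 47.0 CPM in EOM (0.570, 0.492 to 0.663) and 30.8 against 49.2 in TA (0.625, 0.510 to 0.773). Ung stood at 30.3 against 48.1 (0.629) and 28.5 against 46.2 (0.618), Cdca7 at 29.2 against 41.8 (0.7) and 31.3 against 48.3 (0.647), and Dtl at 46.9 against 62.0 (0.756) and 38.1 against 56.6 (0.672). Hells was at 0.787 and 0.809. In the other direction Blm stood at 28.7 against 22.4 CPM in EOM (1.28, 1.05 to 1.58) and 27.7 against 18.3 in TA (1.52, 1.11 to 2.13), and Rad51ap1, Fen1 and Usp1 lay between 1.14 and 1.28 in both; the TA interval of Rad51ap1 reached 0.99. Cdc6, Ung, Cdca7, Dtl and Hells were also among the members that were lowest in Myog-rich cells.

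**Figure D5:**
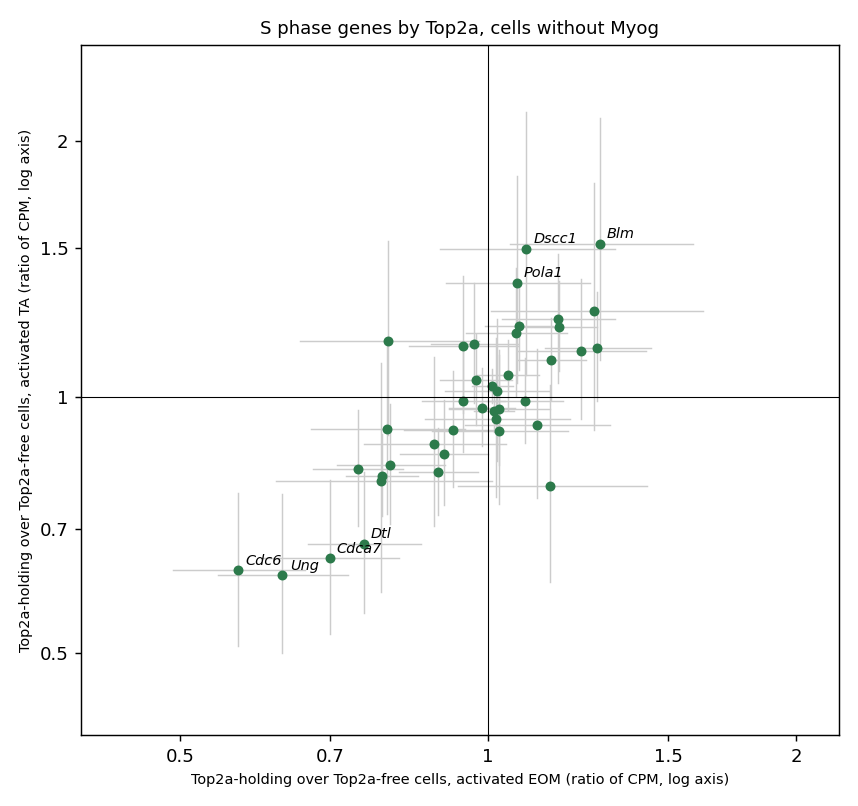
Ratio of CPM in Top2a-holding over Top2a-free cells without Myog, for the 40 S phase genes, EOM on the horizontal and TA on the vertical log axis, with 95% intervals of counting error. Cdc6, Ung, Cdca7 and Dtl lie at the lower left and Blm at the upper right; all lie within 2-fold of 1.

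Single cells gave little further order. Over the 780 pairs of members in the 1633 Myog-free EOM cells, at 10000 UMIs each, the median correlation of log(UMIs + 1) was 0.053, from -0.042 to 0.281, and over 775 TA cells 0.050, from -0.093 to 0.245. The highest EOM pair was Hells and Ung, followed by Nasp and Hells at 0.242. Cells of a library share free RNA and doublets, and counts near 1 a cell or below pull correlations toward 0.

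Counts for 47 other genes of replication were taken in the same way. Of those measured, 27 of 31 in EOM and 29 of 32 in TA were at least 2-fold higher in activated cells, and none and 1 were lower. Over all genes 27.5% and 30.6% were higher and 24.4% and 24.6% lower. Only 11 of the 47 reached 20 CPM in a quiescent library, and the other measured ones could not have been called lower. Tk1, thymidine kinase, had the largest ratio in both, 95.8 and 207, followed by Chaf1a at 21.2 and Asf1b at 21.0, both histone chaperone genes, in EOM and by Asf1b at 50.8 and Mybl2, a cycle transcription factor, at 50.4 in TA. The smallest were Pole4, 0.622 in EOM and 0.653 in TA, Pold4, 0.709 and 0.191, and Timeless, 0.765, in EOM or Orc4, 1.87, in TA. Between the activated muscles Pold4, a small subunit of polymerase delta, stood at 48.7 CPM in EOM and 18.9 in TA (2.58), followed by Lig1 and Timeless at 1.23, while E2f2 at 0.671, Ccne1 at 0.682 and Mybl2 at 0.844 were the lowest. Between Myog-alone and Pax7-alone cells 1 was higher and 7 lower of 39 in EOM, beside 6.59% and 5.73% of all genes. In TA none and 2 of 38 were, beside 4.34% and 1.9%. Pold4 (0.297 and 0.420), Cdt1 (0.397 and 0.442) and Tk1 (0.430 and 0.510) were the lowest, and E2f2 (4.46 and 1.88), Orc4 (1.07 and 1.04) and Orc3 (0.996 and 0.973) the highest. Between cells with 50 or more Myog UMIs and none, 30 of 39 in EOM and 28 of 38 in TA were lower, beside 17.5% and 13.2% of all genes. The lowest were Cdt1, the MCM loading partner of Cdc6, at 0.0409 and 0.0502, and Mcm10 at 0.0470 and 0.0510. Timeless followed at 0.0471 in EOM and Mybl2 at 0.0690 in TA. Orc3 and Orc4, subunits of the origin recognition complex, stood at 1.09 and 1.08 in EOM and 1.08 and 1 in TA. E2f2, an activating E2F, stood at 6.44 CPM without Myog and 26.8 with 50 or more in EOM (4.16) and at 16.0 and 22.5 in TA (1.40). E2f7, the closest relative of E2f8, went from 17.1 to 1.13 CPM in EOM and from 13.8 to 0.823 in TA. That is the direction opposite to that of E2f8, but E2f7 lay under 20 CPM in these cells and did not count as measured.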

How the data were processed

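The submitters deposited 1 table of UMI counts per library, per the submitters' processing notes with Cell Ranger 3.0.2 and the build mm10. The sources do not state the annotation release or the strand setting. Barcodes with at least 500 genes and at most 10% mitochondrial UMIs were kept (scanpy 1.11.5). Scrublet's own threshold marked 1 to 3 barcodes per library and had not worked, so the highest doublet scores, 0.8% per 1000 barcodes, were removed (127, 129, 365 and 222). Leiden clusters with 3 or more markers of another cell type were removed, which took 16 endothelial-like cells; the limit that a marker be seen in 25% of a cluster's cells was set after the data were seen. UMIs were summed per library or per state and given as CPM. Ratio intervals are exact, conditional on the summed UMIs, and shares have Clopper-Pearson intervals. Both cover counting error only, since cells are not replicates. A gene counted as apart at 2-fold or more with at least 20 CPM in 1 of the compared groups. TMM factors came from edgeR 4.0.16. The ratio intervals, the 2-fold calls and the thinning were tested on simulated Poisson counts. The other steps were not tested in this way. All 40 members are named, with full values for the leading 3 of each role and for those that went against the rest. The members, lists and comparisons were chosen with earlier results of these data known.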

Additional observations from a re-analysis of the deposited data

Results flagged for a closer look

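For 6 members the EOM and TA libraries stood in opposite order in the 2 states: EOM was above TA at rest and below it after activation, and both counting intervals left out a ratio of 1. By the same rule 6.37% of the 15125 features with a UMI in every library stood in this order and 3.89% in the reverse order, against 6 and 0 of the 40 members. The rule passes small differences where UMIs are many. These features had no CPM limit and were not matched to the members in UMIs, so the shares and the members' counts are not like for like. With 1 library per group the difference between the states was not tested. Prim1 stood at an EOM over TA ratio of 1.66 (1.24 to 2.25) at rest and 0.908 (0.874 to 0.944) after activation. Fen1 stood at 1.71 and 0.897, Rpa2 at 1.57 and 0.929, and Tipin at 1.29 and 0.921. Nasp stood at 1.2 and 0.919, and Wdr76, which lay under 20 CPM throughout, at 2.09 and 0.85. Prim1, Fen1 and Rpa2 also lay under 20 CPM in both muscles at rest.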

How the results depend on the processing

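Of the recomputed counts of members, 80 were within 1.5 times the reported count and 27 were not. The cause of the 27 was not tested unless fewer genes or cells entered. With a minimum of 50 CPM fewer genes were measured: 20 members were apart on activation in EOM and 20 in TA (34 each as reported), 1 and 1 between Myog-alone and Pax7-alone cells (6 in EOM and 5 in TA), and 23 of 25 measured were lower at 50 or more Myog UMIs in each library (37). With a minimum of 5 CPM, 1 member was apart between the quiescent muscles (0). With mitochondrial shares up to 5%, on far fewer cells, 5 were apart between the quiescent muscles (261 and 47 cells), 0 between the activated ones (1), 1 and 1 between Myog-alone and Pax7-alone cells, 2 by Top2a in TA (0), and 10 lower at high Myog in TA. Between Myog-alone and Pax7-alone cells, TMM and median-of-ratios scaling each gave 3 in EOM and 3 in TA, states from all UMIs gave 15 and 10, a minimum of 2 UMIs to hold a gene gave 11 and 8, states at 5000 UMIs gave 3 in TA, and cells without Top2a and Mki67 gave 35 and 31. By Top2a, a minimum of 2 UMIs gave 1 in EOM, and in TA states from all UMIs gave 3 and values thinned to 10000 UMIs gave 2. Apart from the scaling factors and the cells without Top2a and Mki67, no share of all genes was computed for these settings. Of the recomputed medians, 74 stayed close and 43 moved; of those reported at 0.1 or more in size, 0 changed sign. Depth limits the quiescent values of E2f8, Exo1 and Dscc1, which rest on 7 or fewer UMIs. No paired analysis was possible because each group is 1 library.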
